A study of Mus musculus with 18 samples.

Results

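Squalene is turned into cholesterol by a chain of enzymes of the endoplasmic reticulum, and 9 genes of that chain are described here in mouse liver: Sqle, Lss, Cyp51, Tm7sf2, Msmo1, Nsdhl, Hsd17b7, Sc5d and Dhcr7. They were taken by name, as enzymes of the steps after squalene, from the 18193 genes named on the array. The choice was made with earlier results of these data known, and it leaves out some other genes of these steps. All 9 were bright enough to test, among 12578 genes tested: Sqle lay above the array median on 13 of 18 arrays and the other 8 on all 18. Transcript levels were measured on 18 arrays of liver RNA from male mice aged 12 weeks that had eaten one of 3 diets for 8 weeks and were fasted for 4 h. Controls were Alb-Cre-/-/POR-lox+/+ and knockouts Alb-Cre+/-/POR-lox+/+, so that both carried floxed alleles of P450 reductase (Por) and only the knockouts carried Cre. Cre was driven by the albumin promoter, which is active in hepatocytes, and other liver cells keep the gene. The diets shared an AIN-93G base and differed in fat, which was lard at 6%, canola oil at 6%, or a fish and fungal oil mixture of 2.73% menhaden oil and 3.27% ARASCO, a fungal oil. The 3 diets and 2 genotypes made 6 groups of 3 arrays, and each array carried RNA pooled from 3 mice, so the pool is the replicate.

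Sterol synthesis begins with the mevalonate pathway, which makes squalene, and ends with the steps described here, which close the ring system, strip its methyl groups and move its double bonds. Transcription of nearly all genes of both arms is raised by SREBP2, a membrane-bound factor that is released when cells are short of sterol and held back by INSIG proteins when sterol is plentiful. Several of the enzymes need electrons: Sqle, Cyp51 and Dhcr7 can take them from P450 reductase, the enzyme deleted in the knockouts, and Msmo1 and Sc5d take them from cytochrome b5. Menhaden oil and ARASCO carry long-chain polyunsaturated fatty acids, which are known to lower the activity of SREBP1, a related factor, in liver. The activity of SREBP2 was not measured here.

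The 9 genes fell together with the fish/fungal oil diet, and 1 of them was called lower with the knockout, at the edge of the threshold. Against lard, the fish/fungal oil lowered all 9 of 9 genes over both genotypes, where 1.78% of all genes tested were called lower and 2.32% were called in either direction (limma, Benjamini-Hochberg adjusted p under 0.05). The falls ran from 0.48 for Hsd17b7 to 1.71 for Sqle on the log2 scale, and the median change was -1.08, beside -0.00051 over all genes tested. The 3 other tested genes of the later steps, which are not among the 9, had a median of -0.25, and 1 of them was called lower. Deletion of P450 reductase, averaged over the 3 diets, lowered 1 of 9 genes, Tm7sf2, where 0.755% of all genes were called lower. This call (limma, adjusted p = 0.049) was lost without any 1 of 13 pools. The median change of the 9 genes with the knockout was -0.07, beside -0.0047 over all genes. Bulk RNA cannot tell fewer cells of a type from less RNA per cell, and this holds for every value below.

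All 7 measured markers of hepatocytes, the cells that carry most of hepatic sterol synthesis, lay above the array median on all 18 arrays, and 0 of them were called in any of these comparisons (fish/fungal oil against lard or canola, canola against lard, knockout averaged over diets). Their mean log2 level was lower on fish/fungal oil than on lard without overlap of pools. It lay at 13.498 to 13.664 beside 13.694 to 13.818 in controls, and at 13.386 to 13.583 beside 13.648 to 13.691 in knockouts. The control lard pools also lay above the control canola (13.476 to 13.686) and knockout lard pools. In knockouts, canola pools (13.585 to 13.727) overlapped lard pools. The part of these shifts in the values below was not tested. Of 9 Kupffer cell and macrophage markers, 0 changed between fish/fungal oil and lard (median log2 change 0.07). In the averaged knockout effect, 3 of these 9 rose (median 0.28), where 3.82% of all genes were called higher. Their mean log2 level lay at 8.56 to 9.01 in control and 9.33 to 9.44 in knockout lard pools, 8.43 to 9.00 and 8.71 to 9.14 on canola, and 9.06 to 9.11 and 8.84 to 9.62 on fish/fungal oil. It therefore separated the genotypes on lard and, within controls, fish/fungal oil from both other diets. On lard the sinusoidal endothelial mean (8.44 to 8.45 in control, 8.53 to 8.81 in knockout pools) and the pancreatic acinar mean (7.04 to 7.14, 6.64 to 6.96) also separated the genotypes. The lymphocyte mean in controls was higher on fish/fungal oil (5.63 to 5.68) than on lard (5.51 to 5.61) or canola (5.53 to 5.54). The part of these lists in the values below was not tested. The median of each array was 5.23 to 5.29, and same-group arrays had correlations of 0.993 to 0.997. Without Por, which is not analysed here, the deletion itself could not be checked. The labels do not say that the pools of a group came from separate litters or cages, so p-values measure the spread between these pools.

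The sequences just upstream of these genes are shown because the 9 genes moved together with diet. RefSeq on build GRCm38.p6 gave the 250 bases before the transcription start for 8 of the 9 genes, all but Sqle, in 10 windows, since Dhcr7 has 3 starts and so 3 chances to match. The following 4 patterns were searched on both strands: CCAAT, the core bound by NF-Y, GGGCGG, a GC box bound by Sp1-type factors, CACGTG, an E-box, and TCACNCCAC, a spelling of the sterol regulatory element bound by SREBP. None of these patterns contains another. CCAAT was present in 8 of 8 genes, in 8 of 10 windows, and in 33.8% of the 32851 upstream windows of all genes. GGGCGG was also present in 8 of 8 genes, in 9 of 10 windows, and in 32.7% of all windows. CACGTG was present in 3 of 8 genes (Hsd17b7, Sc5d and Dhcr7), in 3 of 10 windows, and in 6.02% of all windows. The Dhcr7 CACGTG match lies inside the annotated gene, before a later start. The CCAAT matches of Dhcr7 also lie only inside the annotated gene, before another later start. TCACNCCAC was found in 0 of 8 genes and in 1.05% of all windows, which says only that these letters are not in these windows. Each match is a description of letters, not a measured binding site.

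Upstream stretches of 5 enzymes that follow each other in the chain, Lss to Nsdhl, are given, 5′ to 3′ on the gene's own strand, in lower case with CCAAT and GGGCGG in capitals. On the opposite strand these read ATTGG and CCGCCC, which are capitalised too. Each stretch lies outside the annotated gene, upstream of its start, and takes in all matches of its window plus a few flanking bases.
Lss, chr10:76531434-76531552, plus strand: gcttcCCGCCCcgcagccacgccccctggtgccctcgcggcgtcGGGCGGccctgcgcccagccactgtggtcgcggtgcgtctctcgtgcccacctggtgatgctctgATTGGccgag
Cyp51, chr5:4104717-4104837, minus strand: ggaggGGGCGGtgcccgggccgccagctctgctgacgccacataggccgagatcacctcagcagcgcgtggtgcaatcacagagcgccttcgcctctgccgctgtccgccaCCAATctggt
Tm7sf2, chr19:6067888-6067978, minus strand: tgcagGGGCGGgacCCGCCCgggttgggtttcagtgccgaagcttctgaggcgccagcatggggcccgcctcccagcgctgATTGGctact
Msmo1, chr8:64733624-64733743, minus strand: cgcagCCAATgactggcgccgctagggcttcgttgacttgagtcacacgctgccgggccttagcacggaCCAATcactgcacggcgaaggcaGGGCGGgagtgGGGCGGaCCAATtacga
Nsdhl, chrX:72918407-72918510, plus strand: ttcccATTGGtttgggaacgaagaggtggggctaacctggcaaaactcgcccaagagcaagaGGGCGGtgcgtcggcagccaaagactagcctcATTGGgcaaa

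The Cyp51 stretch holds a single CCAAT, whose letters span bases 29 to 25 before the start, and the Lss and Tm7sf2 stretches hold a single one each on the opposite strand, at 62 to 58 and 47 to 43. Nsdhl has 2 and Msmo1 has 3. In Msmo1 the copy nearest the start, at 55 to 51, stands directly downstream of a GC box at 62 to 57, with 1 base between them.

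Sqle encodes squalene epoxidase, which puts the first oxygen on squalene and is a rate-limiting step of the chain. On lard, the log2 values of the control pools were 6.99, 6.95 and 6.65, and those of the knockout pools were 7.37, 5.49 and 7.11. On fish/fungal oil they were 5.12, 4.79 and 4.84 in controls and 5.27, 5.31 and 4.97 in knockouts. All 6 pools on fish/fungal oil lay below all 6 on lard, although knockout lard pool 2 came close to them. Canola pools lay between, at 5.27, 6.85 and 5.56 in controls and 5.93, 5.57 and 5.38 in knockouts, and overlapped both other diets. Over both genotypes Sqle fell by 1.71 ± 0.28 (SE) on the log2 scale with fish/fungal oil against lard (3.28-fold lower, adjusted p = 0.0018). Both fish/fungal group means lay below the array medians, and 1 of these 6 pools lay above its array's median.

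Lss, lanosterol synthase, folds epoxidised squalene into the first sterol. Its values on lard were 8.00, 7.86 and 8.10 in controls and 8.50, 7.60 and 7.90 in knockouts. With fish/fungal oil they were 7.26, 6.92 and 6.85 in controls and 6.46, 7.44 and 6.85 in knockouts. The diets did not overlap, and the knockout pools were spread more widely than the control pools on both. Canola pools read 7.56, 7.76 and 7.78 in controls and 7.75, 7.45 and 7.75 in knockouts, above all fish/fungal pools and overlapping the lard pools at knockout lard pool 2. The fall with fish/fungal oil against lard was 1.03 ± 0.15 (2.04-fold, adjusted p = 0.00095).

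Cyp51 is the P450 that removes a methyl group from lanosterol, and it receives its electrons from P450 reductase. Control pools read 7.92, 8.35 and 8.03 on lard, 7.25, 7.75 and 7.72 on canola and 6.44, 6.32 and 6.72 on fish/fungal oil. Knockout pools read 8.27, 7.41 and 8.12 on lard, 7.52, 6.91 and 7.52 on canola and 6.05, 6.63 and 6.02 on fish/fungal oil. Every fish/fungal pool was below every canola and every lard pool. Against lard the fall was 1.65 ± 0.16 (3.14-fold, adjusted p = 1.2e-05), which was the smallest p-value of the 9 genes in this comparison. Against canola it was 1.08 ± 0.16 (2.11-fold, adjusted p = 0.0021).

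Tm7sf2 encodes a sterol reductase that acts on the product of Cyp51. Its values were 10.58, 10.05 and 10.13 in control lard pools and 10.005, 10.02 and 9.98 in knockout lard pools. With fish/fungal oil they were 9.61, 9.31 and 9.60 in controls and 9.13, 9.33 and 8.68 in knockouts. Canola pools, at 10.34, 10.21 and 10.04 in controls and 10.08, 9.93 and 9.69 in knockouts, overlapped the lard pools, and canola minus lard was -0.08 ± 0.11 (95% confidence interval -0.32 to 0.16, adjusted p = 0.96). Tm7sf2 fell by 0.85 ± 0.11 against lard (1.80-fold, adjusted p = 0.00032) and by 0.77 ± 0.11 against canola (1.71-fold, adjusted p = 0.0018).

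Msmo1 and Nsdhl act in turn on the methyl groups at the other end of the ring, Msmo1 as an oxidase fed by cytochrome b5 and Nsdhl, an X-linked gene, as a decarboxylating dehydrogenase. In controls Msmo1 read 9.63, 9.60 and 9.999 on lard and 8.26, 8.59 and 8.33 on fish/fungal oil. In knockouts it read 9.74, 9.19 and 9.74 on lard and 8.39, 8.96 and 8.88 on fish/fungal oil. These diets did not overlap in either genotype. Canola pools read 9.08, 9.45 and 9.32 in controls and 9.37, 8.99 and 9.24 in knockouts, above all fish/fungal pools. Over both genotypes the fall against lard was 1.08 ± 0.13 (2.12-fold lower on fish/fungal oil, adjusted p = 6.9e-05).

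For Nsdhl the control pools gave 9.81, 9.65 and 9.30 on lard and 8.32, 8.40 and 8.58 on fish/fungal oil. The knockout pools gave 9.62, 8.71 and 9.68 on lard and 7.84, 8.27 and 7.54 on fish/fungal oil. The fish/fungal knockout pools had the lowest group mean and did not overlap the control pools on the same diet. On canola the values were 9.06, 9.32 and 9.45 in controls and 9.12, 8.25 and 8.88 in knockouts. Nsdhl fell by 1.3 ± 0.18 against lard (2.47-fold, adjusted p = 0.00038) and by 0.85 ± 0.18 against canola (adjusted p = 0.025), where knockout canola pool 2, at 8.25, overlapped the fish/fungal pools.

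Hsd17b7, a reductase that completes the same demethylation cycle, changed least. Its pools spanned 8.78 to 9.42 on lard, 8.99 to 9.52 on canola and 8.43 to 9.00 on fish/fungal oil, so the diets overlapped. The fall against lard was 0.48 ± 0.11 (1.40-fold, adjusted p = 0.025), and its adjusted p rose above the threshold without any 1 of 5 pools (up to 0.081): control lard 1, knockout lard 1 and 3, control fish/fungal 2 and knockout fish/fungal 1. Against canola the difference was -0.44 ± 0.11 (adjusted p = 0.065).

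Sc5d, a desaturase fed by cytochrome b5, had the smallest spread within groups of the 9 genes. Its pools lay at 12.33 to 12.87 on lard, 12.03 to 12.54 on canola and 11.55 to 11.95 on fish/fungal oil, with no overlap between fish/fungal oil and either other diet. It fell by 0.89 ± 0.10 against lard (1.85-fold, adjusted p = 3.5e-05). Dhcr7, the reductase of the last step, read 9.23, 9.00 and 8.93 in controls and 9.56, 8.70 and 9.12 in knockouts on lard. On fish/fungal oil it read 7.84, 7.64 and 7.83 in controls and 7.59, 8.39 and 8.07 in knockouts. All fish/fungal pools were again below all lard pools. They were also below the canola pools, which read 8.67, 8.92 and 8.64 in controls and 9.17, 8.41 and 8.88 in knockouts. The fall of Dhcr7 against lard was 1.20 ± 0.15 (2.29-fold, adjusted p = 0.00021).

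**Figure D1:**
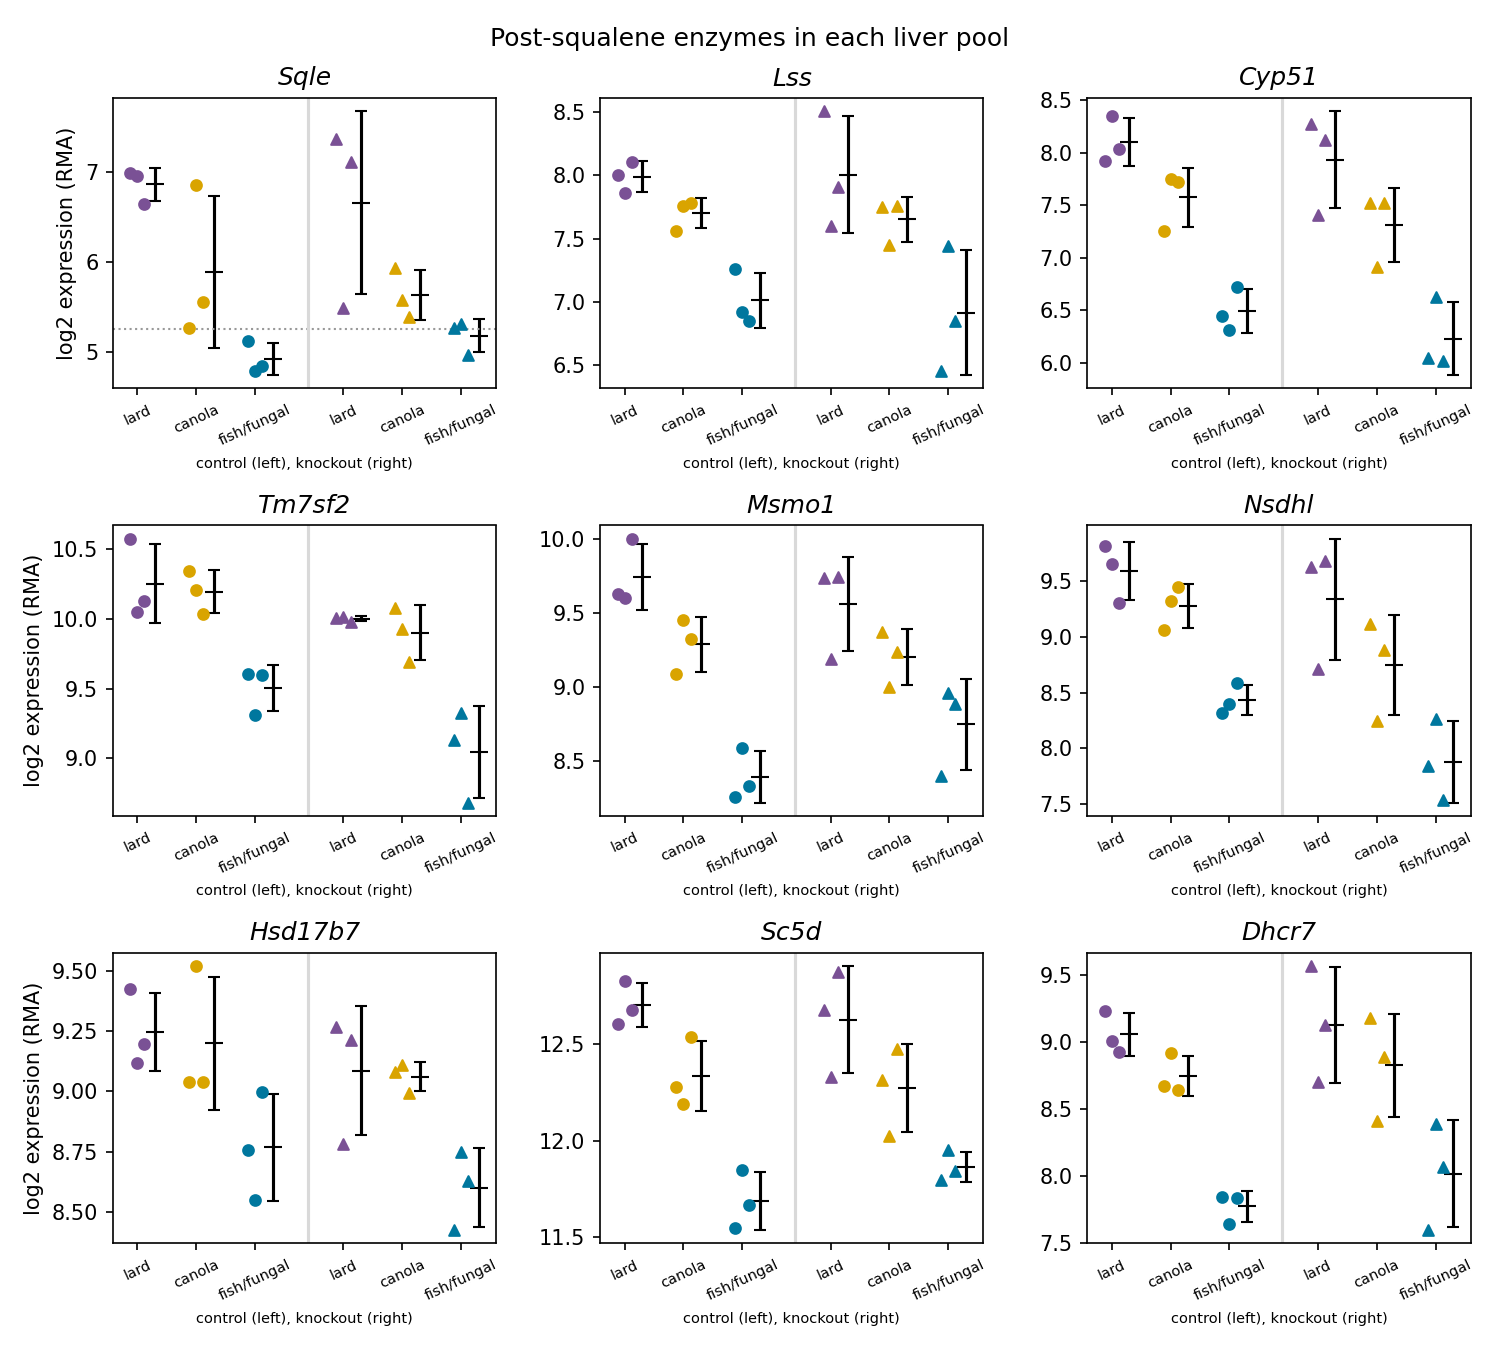
Log2 expression (RMA, vertical axis) of the 9 genes in each of the 18 liver pools, controls at left and knockouts at right in each panel, with points for pools and bars for the mean ± SD of 3 pools. The fish/fungal groups have the lowest means in 9 of 9 panels, and the dotted line in the Sqle panel marks the median array median.

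By count, 8 of 9 genes had no fish/fungal pool overlapping a lard pool (6 against 6), which held for 1.15% of all genes in the lower direction, and Hsd17b7 was the exception. Against canola, fish/fungal oil lowered 7 of 9 genes, where 0.692% of all genes were called lower, with a median change of -0.71 beside 0.0066 over all genes. The exceptions were Sqle (-0.71 ± 0.28, adjusted p = 0.34) and Hsd17b7. Pools did not overlap in 6 of 9 genes, against 0.7% of all genes. The calls for Lss (adjusted p = 0.033) and Nsdhl were each lost without any 1 of 8 pools (adjusted p up to 0.091 for Lss and 0.077 for Nsdhl). Where a gene's probe sets were averaged in place of taking the brightest, Msmo1 (-0.31, adjusted p = 0.059) and Sc5d (-0.53, adjusted p = 0.074) were not called, and the count was 5. The Msmo1 average takes in a probe set above the array median on 0 of 18 arrays, while every Sc5d probe set lay above it on 18. In this comparison all 9 Kupffer cell and macrophage markers had positive changes (median 0.32, 1 called higher), and 2 of 3 neutrophil markers were positive (median 0.83, 0 called). The mean neutrophil level lay at 5.68 to 6.17 on canola and 6.55 to 7.14 on fish/fungal oil in control pools, and at 5.96 to 6.31 and 6.16 to 6.84 in knockout pools. The part of either list in the fall was not tested.

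Canola against lard gave 0 of 9 called genes over both genotypes, and 0% of all genes were called, although 852 genes and 5 of the 9 had an unadjusted p under 0.05 in limma. All 9 changes were negative, from -1.0 for Sqle to -0.04 for Hsd17b7, with a median of -0.36 beside -0.0085 over all genes. Cyp51 stood at -0.57 ± 0.16 (adjusted p = 0.37) and Sc5d at -0.36 ± 0.10 (adjusted p = 0.34). In controls, 5 of 9 genes had all canola pools below all lard pools (Lss, Cyp51, Msmo1, Sc5d and Dhcr7), against 5.58% of all genes. In knockouts 0 of 9 did. Same-numbered knockout pools on lard and canola deviated together (residual correlations 0.17, 0.23 and 0.19). All 3 correlations were over 0.1 in 2 of 15 pairs of groups. The labels do not pair the pools, so these pairs were chosen from the data and the paired values are descriptions. Taken in these pairs, canola was the lower in 3 of 3 for 6 genes (Lss, Cyp51, Msmo1, Nsdhl, Sc5d and Dhcr7), as for 15.4% of all genes. The paired differences of Cyp51 were -0.75, -0.50 and -0.60. A fit of these 6 pools with the pairs as a block, added after seeing the data, called 0 of 9 (Cyp51 -0.62 ± 0.09 and Nsdhl -0.59 ± 0.10, adjusted p = 0.18 for both). Within controls or knockouts alone canola likewise gave 0 of 9 called genes and 0% of all genes. The Kupffer cell and macrophage markers were negative in 9 of 9 over both genotypes (median -0.27, 0 called) and the neutrophil markers in 2 of 3 (median -0.88, 0 called), and their part was not tested. Without knockout lard pool 2 Sqle was called lower on canola than on lard over both genotypes (-1.29 ± 0.21, adjusted p = 0.042), and the other 8 were not. The 3 diet comparisons share pools, so their values are not independent of each other.

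**Figure D2:**
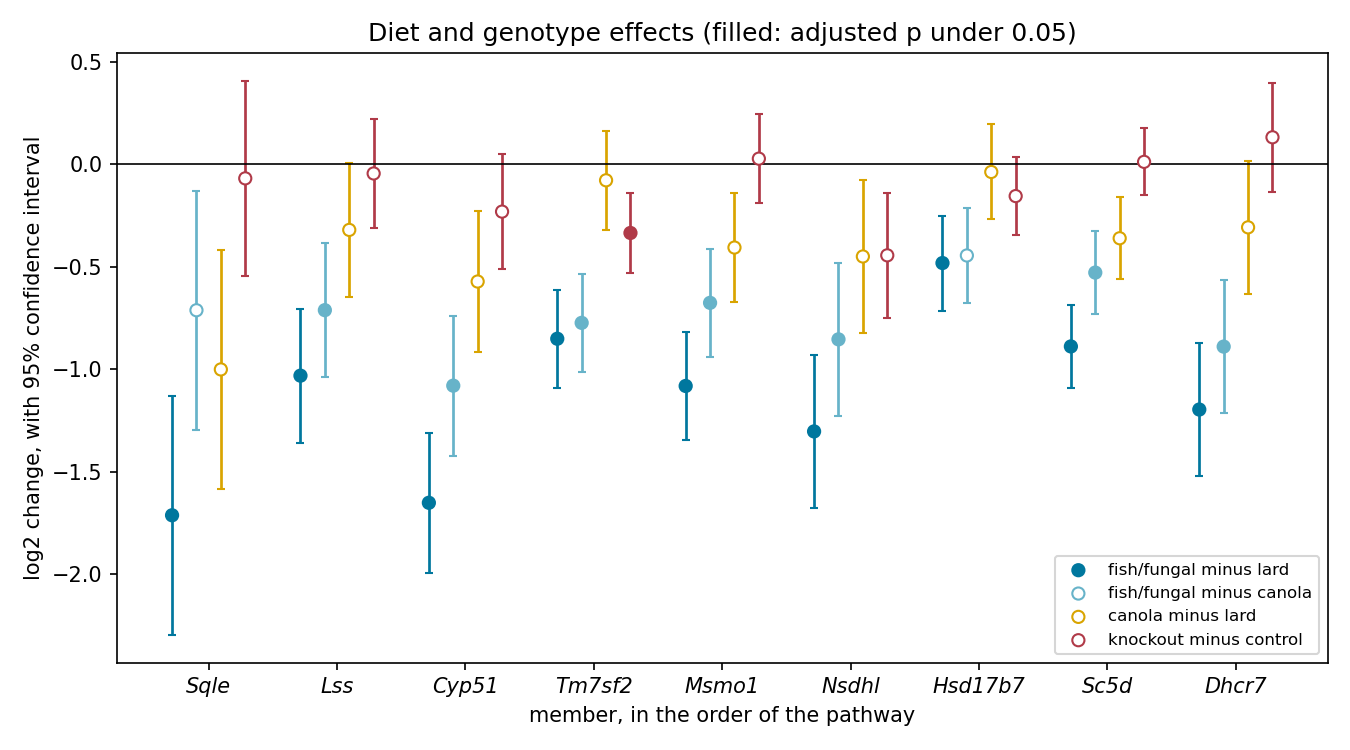
Log2 change (vertical axis, with 95% confidence interval) of each gene for fish/fungal oil minus lard, fish/fungal oil minus canola, canola minus lard, and knockout minus control averaged over diets, filled where the adjusted p is under 0.05. Fish/fungal oil against lard is filled for 9 of 9 genes and the knockout effect for Tm7sf2 alone.

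The question of whether the knockout alters the response to diet was addressed within each genotype. In controls fish/fungal oil lowered 8 of 9 genes against lard (all but Hsd17b7), where 0.62% of all genes were called lower. In knockouts it lowered 6 of 9 (all but Sqle, Msmo1 and Hsd17b7), where 0.421% of all genes were called lower. The 3 fish/fungal pools lay below the 3 lard pools in 9 of 9 genes in each genotype, against 7.39% of all genes in controls and 6.14% in knockouts. Sqle read -1.48 ± 0.39 in knockouts (adjusted p = 0.14) and fell by 1.95 ± 0.39 in controls (adjusted p = 0.024).

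These counts rest on few pools. Without 1 of the 6 control lard or fish/fungal pools the count in controls was 4 or 5, and without 1 of 4 knockout pools (lard 1 and 3, fish/fungal 1 and 3) the count in knockouts was 1 or 2. Without knockout lard pool 2 it was 8, and Sqle then fell by 2.06 ± 0.31 (adjusted p = 0.0033) and Msmo1 by 0.99 ± 0.18 (adjusted p = 0.012). With 3 pools a group, a difference between the 2 counts does not show that the genotypes respond differently.

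The difference between the genotypes' responses was tested directly. For fish/fungal oil against lard it was called in 0 of 9 genes and in 0% of all genes (limma, 305 genes with an unadjusted p under 0.05). The F test over all diets also called 0 of 9 and 0% of all genes, with 242 at an unadjusted p under 0.05. The fall was smaller in knockouts for 4 genes and larger for 5. Msmo1 had the largest difference, 0.54 ± 0.25 (95% confidence interval 0.01 to 1.07, adjusted p = 1), from a change of -1.35 in controls to -0.81 in knockouts. For Cyp51 the responses were -1.60 and -1.70, and the interval of their difference ran from -0.78 to 0.59. For Sqle the interval ran from -0.70 to 1.63, so sizeable differences either way lie within its error.

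Against canola, fish/fungal oil lowered 1 of 9 genes in controls, Msmo1 (-0.90 ± 0.18, adjusted p = 0.037), where 0.223% of all genes were called lower. In knockouts it lowered 1 of 9, Tm7sf2 (-0.85 ± 0.16, adjusted p = 0.042), where 0.127% were. Both calls were lost without single pools, Msmo1 without any 1 of 7 pools (the 6 compared and knockout canola 3) and Tm7sf2 without any 1 of 15 of the 18 pools, all but control lard 1, control fish/fungal 2 and knockout fish/fungal 2. The pools did not overlap in 9 of 9 genes in controls, against 4.75% of all genes, and in 8 of 9 in knockouts, against 4.78%, with Nsdhl as the exception.

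**Figure D3:**
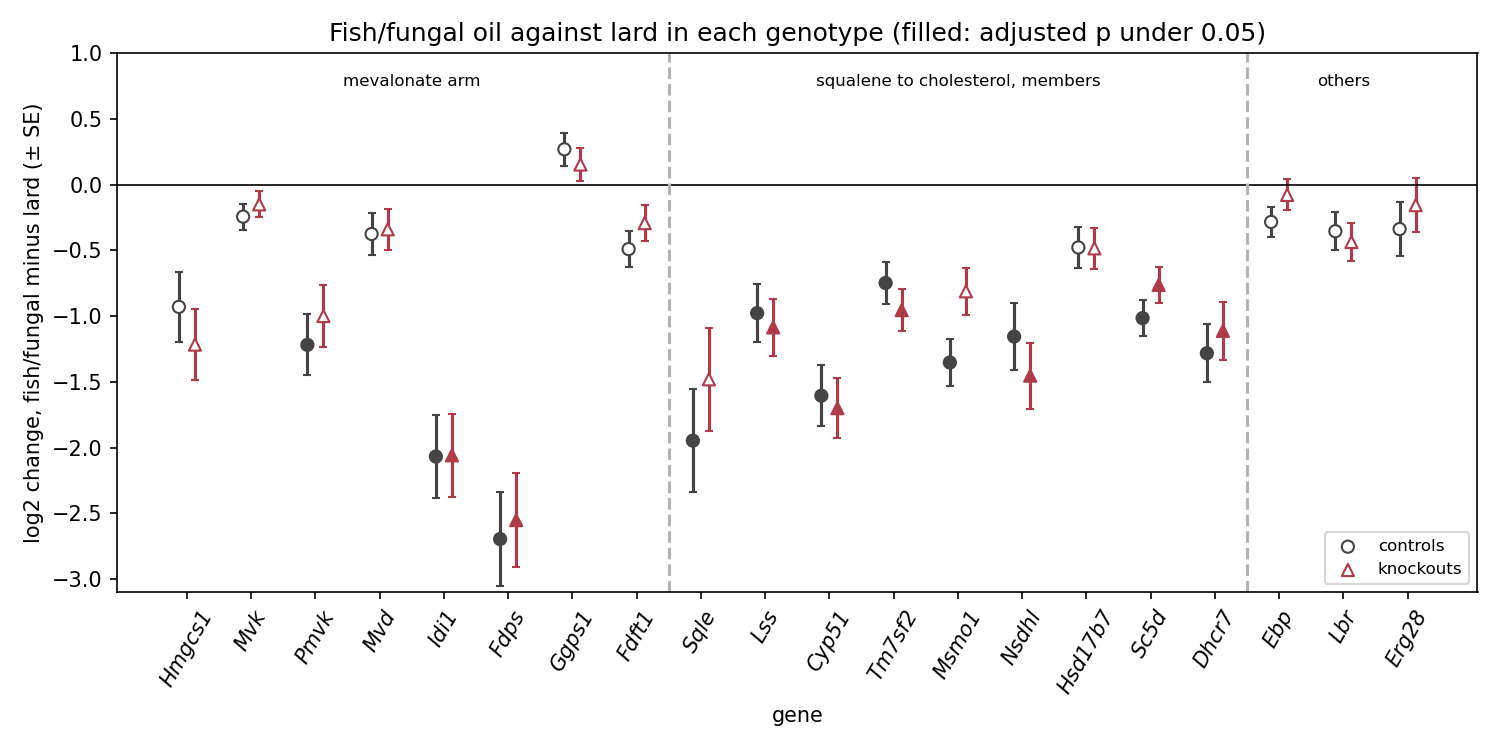
Log2 change with fish/fungal oil against lard (vertical axis, ± SE) in controls (circles) and knockouts (triangles) for the 8 tested genes of the mevalonate arm, the 9 genes from squalene to cholesterol and 3 other genes of the later steps, filled where the adjusted p is under 0.05. Idi1 and Fdps have the largest falls, and all 9 genes after squalene lie below 0 in both genotypes.

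Deletion of P450 reductase moved 1 of the 9 genes past the threshold. Tm7sf2 fell by 0.33 ± 0.09 averaged over diets (1.26-fold, adjusted p = 0.049), at the edge of the threshold, and the call was lost without any 1 of 13 pools, all but control lard 2, control canola 3, knockout canola 1, control fish/fungal 2 and knockout fish/fungal 2 (adjusted p up to 0.092). In the same comparison 1 of 2 tested pancreatic acinar markers was called lower (-0.57), and its part was not tested. Nsdhl had a larger change with more spread, -0.44 ± 0.15 (adjusted p = 0.095). Of the 3 enzymes that can take electrons from P450 reductase, 0 were called: Cyp51 read -0.23 ± 0.13 (adjusted p = 0.39), Sqle -0.07 ± 0.23 (adjusted p = 0.92) and Dhcr7 0.13 ± 0.13 (adjusted p = 0.65). Their 95% confidence intervals were -0.51 to 0.05, -0.55 to 0.41 and -0.13 to 0.40. Of the pair fed by cytochrome b5, Msmo1 read 0.03 ± 0.10 and Sc5d 0.01 ± 0.08 (adjusted p = 0.92 and 0.96). Lss read -0.04 ± 0.13 and Hsd17b7 -0.15 ± 0.09 (adjusted p = 0.90 and 0.40).

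Within single diets the knockout called 0 of 9 genes on lard, canola or fish/fungal oil, where 0.986%, 0.0636% and 0.294% of all genes were called. On lard the 3 knockout pools of Tm7sf2 (9.98 to 10.02) lay below the 3 control pools (10.05 to 10.58), as 6.84% of all genes did. On fish/fungal oil the same held for Nsdhl, as for 5.18% of all genes, with a change of -0.55 ± 0.25 (adjusted p = 0.63). Several knockout values on lard turned on 1 pool. Without knockout lard pool 2 the change of Sqle on lard went from -0.20 to 0.38, that of Cyp51 from -0.17 to 0.09 and that of Nsdhl from -0.25 to 0.06, and 0 of 9 genes were called in either case.

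Ordered by group means, the 2 fish/fungal groups were the lowest 2 of 6 in 9 of 9 genes. The lard groups were the highest 2 in 7 of 9. In Tm7sf2 and Hsd17b7 the control canola group stood in second place, above the knockout lard group. Neighbours in these orders mostly overlapped: of 45 neighbouring pairs of groups, 10 had pools that did not overlap. In 7 genes such a gap separated the lowest group not on fish/fungal oil from the higher of the fish/fungal groups. Nsdhl and Hsd17b7 had no gap at that place.

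Pools of the same group also differed from each other, and most of the 9 genes differed together. With group means removed, Tm7sf2 (r = 0.11) and Sc5d (r = 0.41) followed the other 8 least. In knockout lard pool 2, 8 of 9 genes were at the lowest value of their group, with a mean deviation of -0.46 and a deviation of -1.17 in Sqle. In knockout fish/fungal pool 2, 9 of 9 were at the highest value of their group (mean deviation 0.28). Knockout lard pool 1 lay above its group mean in all 9 (mean deviation 0.30). Within-group standard deviations were 0.57 for Sqle, 0.35 for Nsdhl, 0.32 for Cyp51, 0.31 for Lss and 0.30 for Dhcr7, beside a median of 0.14 over all genes tested. Sqle stood at the 99.4th percentile of this spread, and Sc5d, at 0.18, at the 73.0th.

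**Figure D4:**
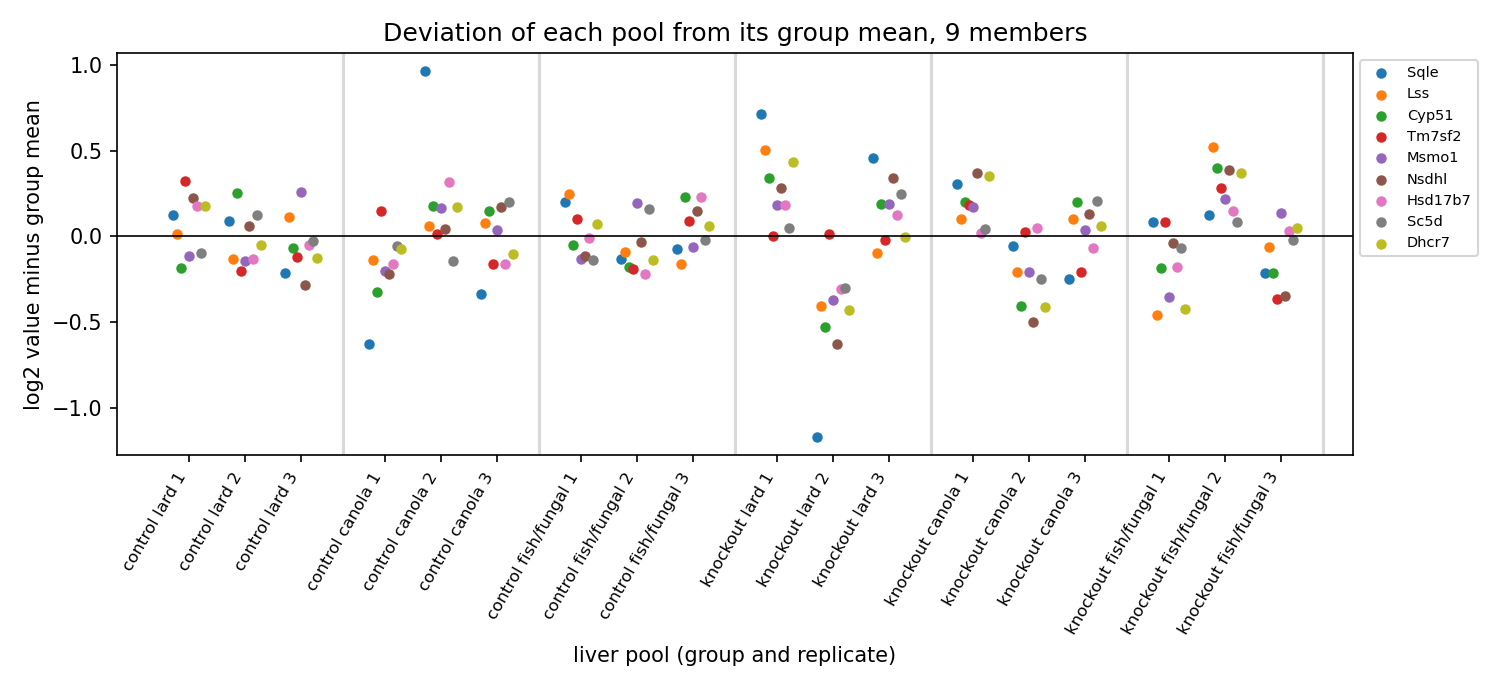
Deviation of each gene (coloured points) from its group mean on the log2 scale (vertical axis) in each of the 18 pools (horizontal axis). Points of a pool tend to fall on the same side of 0, most clearly in knockout lard pool 2, where 8 of 9 genes are at the lowest value of their group, and in knockout fish/fungal pool 2, where 9 of 9 are at the highest.

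The array carries 19 probe sets for the 9 genes, and 5 genes have several. Each gene was read from its brightest, and the others bear on whether a fall belongs to the gene or to the probe set. A second Cyp51 probe set fell by 2.04 (fish/fungal oil minus lard) and a second for Lss by 1.05. The other Sc5d probe sets fell by 1.11 and 0.74, and those of Hsd17b7 by 0.55 and 0.45. The last Lss probe set read 0.02 and so disagreed. It lay above the array median on 17 of 18 arrays, and the second Lss and Cyp51 sets each on 12. Their means, 5.52, 5.53 and 5.72 in that order, were near the array median. The remaining probe sets of Cyp51 (-0.35), Msmo1 (0.10) and Hsd17b7 (0.05) were above the array median on 0 of 18 arrays. The probe sets used for Lss and Hsd17b7 carry suffixes that mark possible cross-hybridization. The falls of 1.05, 0.55 and 0.45 come from probe sets without such a suffix, as does the Lss value of 0.02. For the knockout, the second Lss probe set read -0.32, beside -0.04 for the one used. The second Cyp51 probe set read 0.08, beside -0.23, and one for Hsd17b7 read 0.04, beside -0.15. The direction of the uncalled Cyp51 and Hsd17b7 changes therefore depends on the probe set. The last Cyp51 probe set also read 0.08 but is among those above the array median on 0 of 18 arrays.

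Of 8 tested genes of the mevalonate arm, which supplies squalene, 5 fell as well with fish/fungal oil against lard. Over all genes, 1.78% were called lower. Fdps, which makes farnesyl diphosphate, fell by 2.62 ± 0.25 (6.16-fold, adjusted p = 9.2e-06), and Idi1, the isomerase before it, fell by 2.06 ± 0.22 (4.18-fold, adjusted p = 3.5e-05). Pmvk fell by 1.11 (adjusted p = 9e-04), Hmgcs1 by 1.07 (adjusted p = 0.0038) and Fdft1, which makes squalene, by 0.39 (adjusted p = 0.037). Mvk (-0.20), Mvd (-0.36) and Ggps1 (0.21), which draws farnesyl diphosphate away from sterols, were not called. The median change of the arm was -0.73, beside -1.08 for the 9 genes and -0.25 for 3 other tested genes of the later steps. Of these 3, Lbr, a reductase with the same reaction as Tm7sf2, fell by 0.40 (adjusted p = 0.047). Ebp, the isomerase of the chain, read -0.18 and Erg28 -0.25. The averaged knockout effect called 0 of 8 genes of the mevalonate arm and 0 of these 3.

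Among 20 tested genes of sterol sensing and transport, 4 fell with fish/fungal oil against lard and 0 rose. In that comparison 1.78% of all genes were called lower. Stard4, a cytosolic sterol carrier, fell by 1.36 ± 0.10 (adjusted p = 8.6e-07), Insig1 by 1.25 ± 0.16 (adjusted p = 2e-04), Srebf1 by 0.97 ± 0.14 (adjusted p = 0.00094) and Insig2 by 0.75 ± 0.15 (adjusted p = 0.01). Srebf2, which encodes SREBP2, read -0.20 ± 0.07 (adjusted p = 0.22). The median of the list was -0.01. In the averaged knockout effect Insig2 rose by 0.52 (adjusted p = 0.02) and Stard4 fell by 0.35 (adjusted p = 0.023). There 3.82% of all genes were called higher and 0.755% lower. Of 6 tested electron carriers of the cytochrome b5 system, 2 fell with fish/fungal oil against lard: Cyb5b, the mitochondrial form of cytochrome b5, by 0.74 (adjusted p = 0.014) and Cyb5r3, a cytochrome b5 reductase, by 0.58 (adjusted p = 0.0067). Cyb5a, the form of the endoplasmic reticulum, read 0.11 (adjusted p = 0.19). The knockout called 0 of these 6.

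To see which other genes followed the same pattern, each gene tested was correlated over the 18 arrays with the mean scaled profile of the 9. Each of the 9 correlated with the mean of the other 8 at Pearson r = 0.80 (Tm7sf2) to 0.97 (Cyp51). Outside the 9, the most alike were Fdps (r = 0.98), Acacb and Fasn (0.97 each), Idi1 (0.96) and Fads1 (0.95). Acacb and Fasn belong to fatty acid synthesis and Fads1 to fatty acid desaturation, and their changes with fish/fungal oil against lard were -2.41, -2.70 and -3.39. The least alike were Akip1 (-0.86) and Gsto1 (-0.85). The arrays share the diet groups, so these correlations are descriptions. With group means removed, r was 0.90 for Fdps, 0.88 for Acacb, 0.87 for Fasn, 0.83 for Fads1 and 0.73 for Idi1, 0.17 for Akip1 and -0.66 for Gsto1. Within groups Tm7sf2 followed the other 8 least (0.11) and Dhcr7 most (0.87).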

How the data were processed

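The deposited values are RMA values from an Affymetrix mouse whole-genome array, per the submitters' processing notes, with software version and build not given in the sources used here. Their log2 scale was read from the deposited values (2.41 to 14.9). Sample labels give 7% fat and the series text 6%. Of 45101 probe sets, 34945 had 1 gene symbol and 932 several, and 34741 of the former matched the RefSeq table (GRCm38.p6). The brightest probe set on average over all arrays stood for a gene, which was tested if it lay above the array's median on at least 3 arrays. One limma 3.58.1 fit (R 4.3.3) of 6 group means, with an intensity trend, gave all contrasts. P-values are two-sided and Benjamini-Hochberg adjusted over 12578 genes, with a threshold of 0.05. Fold changes are antilogs of the log2 differences. The number of arrays limits the precision. All 9 genes are described, and other genes were named from fixed pathway lists or as the 5 most and 2 least alike in profile. The members, lists and motifs were chosen with earlier results of these data known. Alternatives were other normalizations, filters, probe set rules, fits, a replicate block and leaving out each pool. Scripts were tested on simulated data. Por and some other genes of the pathway lists are not analysed here.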

Additional observations from a re-analysis of the deposited data

How the results depend on the processing

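The falls with fish/fungal oil against lard over both genotypes kept their direction under every alternative and without each pool, and of 251 such values 5 lost the threshold, all for Hsd17b7. Sqle has no value with a filter at the 75th percentile, where the count was 8. Smaller moves in the count of the 9 genes were 5 to 8 for fish/fungal oil against canola over both genotypes, and against lard 6 to 8 in controls and up to 7 in knockouts. Counts moved by over 1.5 times in these cases: the knockout averaged over diets, 0 with no filter on dim probe sets (Tm7sf2 adjusted p = 0.054); fish/fungal oil against lard in knockouts, 2 with array weights and 1 with only the groups compared; fish/fungal oil against canola in controls, 3 with repeated quantile normalization, 4 with centred arrays or only the groups compared, and 2 with the 75th percentile filter or array weights; and in knockouts, 0 with only the groups compared. Counts of all genes moved by over 1.5 times for the knockout on lard (70 with the 75th percentile filter), on canola (90 with array weights, 1 with only the groups compared) and on fish/fungal oil (24 with mean probe sets, 22 with only the groups compared), for canola against lard (1 with array weights; 2 in controls with only the groups compared), for fish/fungal oil against lard in knockouts (30 with array weights, 12 with only the groups compared) and against canola (50 in controls with centred arrays or array weights, 10 in knockouts with only the groups compared). The causes were not tested. The knockout effect reversed, always within its error, for Msmo1 (-0.00094 with quantile normalization) and Sc5d (-0.0029 with quantile normalization, -0.0039 with centred arrays, -0.035 with array weights).

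Leaving out each pool gave these ranges for the 9 genes: 0 to 1 for the averaged knockout effect and for canola against lard, 4 to 8 for fish/fungal oil against lard in controls and 1 to 8 in knockouts, and 0 to 4 against canola in controls and 0 to 2 in knockouts. For all genes it gave 371 to 698 for the averaged knockout effect, 30 to 161 on lard, 3 to 28 on canola and 13 to 43 on fish/fungal oil. It gave 41 to 93 for fish/fungal oil against lard in controls and 12 to 116 in knockouts, 76 to 155 against canola over both genotypes, 19 to 48 in controls and 5 to 30 in knockouts, 0 to 4 for canola against lard and 0 to 2 in controls, and 0 to 1 for the interaction and for the F test. The averaged knockout effect ranged from -0.19 to 0.13 for Sqle, -0.13 to 0.032 for Lss, -0.0078 to 0.089 for Msmo1 and -0.029 to 0.062 for Sc5d.

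Same-numbered pools did not deviate together over the 6 groups (residual correlations -0.40 to 0.46, with 17 of 45 over 0.1), although all 3 correlations were over 0.1 in 2 of 15 pairs of groups, knockout lard with knockout canola and with control canola. The paired fit of knockout lard and canola called 2 genes of all. With the replicate number as a block, 2 of the 9 genes were called for fish/fungal oil against canola in controls and 13 genes of all in knockouts. It lifted the adjusted p above 0.05 for Lss against canola (0.054), Lss and Nsdhl against lard in controls (0.081 and 0.063) and Lss in knockouts (0.057). Under these alternatives and without each pool, the median change of all genes stayed within -0.028 to 0.032.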

Other observations

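With group means removed, the genes that varied most like the 9 from pool to pool over the 18 arrays were Fdps and Me1 (r = 0.90 each), Acsl5 and Gpam (0.89 each) and Acacb (0.88). Me1, malic enzyme, supplies NADPH, and Acsl5 and Gpam activate fatty acids and start glycerolipid synthesis. Me1 changed by -1.98, Acsl5 by -0.62 and Gpam by -0.74 with fish/fungal oil against lard. These are descriptions over pools of the same groups, with no test.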
